A study of Mus musculus with 9 samples.

Results

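The genes of rod and cone phototransduction were described in ribosome-bound RNA of the mouse retina after injury to the optic nerve. A list of 34 gene symbols was looked up by name in the deposited table, and all 34 were found among its 14194 genes. From what is known of each gene, 10 were set in a rod class, 10 in a cone class and 14 in a class of genes used by both kinds of photoreceptor.

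Each library held RNA pulled down with an antibody against GFP from 2 pooled retinae of tamoxifen-induced mice whose genotype the labels spell Aldhl1l-Cre/Ert2+; NuTRAP+. In such mice Cre driven by Aldh1l1, a gene of astroglia, switches on a GFP tag on ribosomes, and the series text names Müller glia, the radial glia of the retina, as the cells studied. The ONC group (5 libraries) came from eyes taken 72 h after optic nerve crush: forceps closed on the nerve for 3 s at a point about 1 mm from the back of the eye. The Control group (4 libraries) came from fellow eyes of the same genotype, tamoxifen-induced like the others, that were untreated or sham-operated; which eyes had the sham is not given in the sources used here, nor are the ages of the mice. Libraries are named below by group and by the animal numbers of their pool, and 4 pools (914/92, 938/88, 976/978 and 981/982) gave both a Control and an ONC library. The ONC library of pool 913/986 had no partner here, because its control was not analysed here.

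Phototransduction starts when light isomerises the retinal bound to an opsin. The opsin activates the G protein transducin, whose alpha subunit releases the phosphodiesterase PDE6 from its inhibitory gamma subunit. PDE6 then breaks down cyclic GMP, and cyclic-nucleotide-gated channels of the outer segment close. Arrestins end the signal, and guanylate cyclases with their calcium-sensing activator proteins restore cyclic GMP. Rods, which serve dim light, and cones, which serve daylight and colour, use separate but related genes for most of these steps. The transcription factors CRX and NRL are known to bind the promoters of many of these genes.

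Promoter windows of 5 genes are shown because the results below set rod genes beside cone genes. These windows are examples of how the recognition letters of those factors are placed, and do not stand for their classes. Of the 34 genes, 24 had a window (250 bases before to 50 bases after the start) in a RefSeq table of 27025 mouse genes, build GRCm38.p6. The windows were searched on both strands for the CRX core in its spellings TAATCC and TAATCT, which read GGATTA and then AGATTA on the opposite strand, and for TGCTGA, a half-site of NRL, which on the opposite strand is TCAGCA; the motifs do not overlap in the windows shown. Sequences run 5′ to 3′ on the strand of the gene, and capitals mark every match to these motifs. The windows are Sag at chr1:87803430-87803729 (plus strand), Pde6b at chr5:108388123-108388422 (plus strand), Gnat2 at chr3:108092816-108093115 (plus strand), Opn1sw at chr6:29380464-29380763 (minus strand) and Arr3 at chrX:100605247-100605546 (plus strand).
Sag: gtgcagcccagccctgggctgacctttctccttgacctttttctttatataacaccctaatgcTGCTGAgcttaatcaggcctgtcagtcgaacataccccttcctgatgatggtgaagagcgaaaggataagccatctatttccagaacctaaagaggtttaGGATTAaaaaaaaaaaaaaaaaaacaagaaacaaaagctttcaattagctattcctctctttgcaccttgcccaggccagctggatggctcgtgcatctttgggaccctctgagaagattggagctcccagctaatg
Pde6b: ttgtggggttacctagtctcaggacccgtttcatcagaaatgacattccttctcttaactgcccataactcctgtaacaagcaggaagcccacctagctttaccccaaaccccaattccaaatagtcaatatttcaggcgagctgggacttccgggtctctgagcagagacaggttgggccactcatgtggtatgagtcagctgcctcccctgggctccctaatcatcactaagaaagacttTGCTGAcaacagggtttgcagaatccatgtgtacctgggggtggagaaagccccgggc
Gnat2: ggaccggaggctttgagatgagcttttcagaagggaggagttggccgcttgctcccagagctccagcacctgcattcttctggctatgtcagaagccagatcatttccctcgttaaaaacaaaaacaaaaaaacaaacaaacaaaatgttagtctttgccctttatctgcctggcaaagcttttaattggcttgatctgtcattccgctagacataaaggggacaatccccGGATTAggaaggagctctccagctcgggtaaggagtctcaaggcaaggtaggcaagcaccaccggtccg
Opn1sw: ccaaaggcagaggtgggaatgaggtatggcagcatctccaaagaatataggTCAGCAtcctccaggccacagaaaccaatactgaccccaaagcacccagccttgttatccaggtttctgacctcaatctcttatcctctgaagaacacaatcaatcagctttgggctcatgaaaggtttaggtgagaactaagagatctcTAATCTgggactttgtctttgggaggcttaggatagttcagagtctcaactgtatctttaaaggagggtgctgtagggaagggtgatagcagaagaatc
Arr3: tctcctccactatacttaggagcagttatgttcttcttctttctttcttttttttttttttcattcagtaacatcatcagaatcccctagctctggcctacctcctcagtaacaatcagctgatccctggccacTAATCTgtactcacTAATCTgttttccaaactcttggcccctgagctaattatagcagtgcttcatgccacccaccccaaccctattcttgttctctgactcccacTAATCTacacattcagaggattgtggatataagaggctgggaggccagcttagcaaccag
Sag, the rod arrestin, had a CRX core at -87 and an NRL half-site at -187, counted to the first base of the match from the start. Pde6b, a catalytic rod phosphodiesterase subunit, had an NRL half-site at -8 and neither CRX spelling. Among the cone genes, Gnat2 had a CRX core at -19, Opn1sw had one at -49 and an NRL half-site at -199, and Arr3 had 3, at -116, -102 and -10. TAATCC was found in 11 of the 24 windows (45.8%) against 8.14% of all windows in the table. TAATCT was found in 6 (25.0%) against 9.4%, and either spelling in 16 (66.7%) against 16.3%. By class, either spelling was in 5 of 7 rod windows (71.4%), 3 of 6 cone windows (50.0%) and 8 of 11 shared windows (72.7%). The cone windows shown are the 3 with a CRX core. TGCTGA was found in 5 (20.8%) against 21.7% of all windows. A match says that the letters are there, not that a factor was bound.

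The deposited values are log2 values relative to a baseline for each gene that was set among the controls, so a difference of 1 is a doubling. In 32 of the 34 genes a control library stood at exactly 0, and the median of the 4 Control libraries ranged from -0.48 (Cnga3) to 0.13 (Nr2e3), so 0 is not the median of these controls for every gene, cone genes above all. They hold no absolute level and no total count, and the depth of each library is unknown; genes can be compared by their differences between libraries, not by how abundant they are. All 34 genes passed the submitters' filter on raw values in both groups, as did all 18 Müller glia markers, so the values do not tell from which cells the photoreceptor RNA came. Over all genes, limma called 165 of 14194 (1.16%) at a Benjamini-Hochberg adjusted p under 0.05, 73 higher and 92 lower in ONC. These p-values measure the spread between libraries within each group, where each library is a pool. The fit leaves out the pairing of Control and ONC libraries from the same pool. Of 11 retinal ganglion cell markers, 6 were called lower in ONC.

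Some libraries stood apart. In ONC 913/986 and ONC 914/92 the median of 4 Y-linked genes was -8.02 and -7.92, against -1.18 in Control 914/92 and -0.17 to 0.20 in the other libraries. ONC 914/92 and Control 914/92 carry the same animal numbers but differed in Y-linked RNA, with Uty at -8.14 and -1.53. A second pair, Control 981/982 and ONC 976/978, was high in non-coding RNAs known to stay largely in the nucleus, with Malat1 at 1.41 and 1.10 and at most 0.20 elsewhere. The first 2 are called Y-poor below. These sets of libraries were noticed in the data, and the plot of differences by gene shows every one of the 34 genes with and without the Y-poor libraries.

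No photoreceptor gene passed the test between ONC and Control. The limma count was 0 of 34 against 1.16% of all genes, a share that comes to less than 1 gene in 34, and the adjusted p ranged from 0.159 (Opn1mw) to 0.831 (Sag). At an unadjusted p under 0.05 there was 1 gene, Opn1mw, against 19.5% of all genes. That count is for the fit that leaves out the pairing by pool. With the pool as a replicate block the SE of Pdc was 0.08 in place of 0.34. That of Pde6g was 0.10 in place of 0.27, and that of Opn1mw 0.25 in place of 0.27. Over all genes 3503 of 14194 had an unadjusted p under 0.05 in limma with the block. The matching count among the 34 is not given here, so the 1 gene above must not be set against it. With the block the limma adjusted p fell from 0.504 to 0.0904 for Pdc and from 0.496 to 0.176 for Pde6g. For Arr3 it rose from 0.751 to 0.865. None of the 34 was called with the block. The ONC mean was below the Control mean for 33 of 34 genes, against 50.1% of all genes, and the median difference was -0.33 on the log2 scale against -0.0006 over all genes. In these bulk pull-downs, fewer cells of a type, less RNA per cell and less RNA of other cells carried along cannot be told apart.

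The size of that lower mean depended on which low libraries entered. With ONC 913/986 and ONC 914/92 left out but the low Control 914/92 kept, 14 of the 34 genes had the lower mean in ONC and 20 the higher, and the median difference was 0.03. The class medians then were 0.03 (rod), 0.05 (shared) and -0.21 (cone), in place of -0.29, -0.27 and -0.51. With both libraries of pool 914/92 left out instead, 33 of 34 were lower, and the class medians were -0.29 (rod), -0.25 (shared) and -0.69 (cone). With Control 914/92 and both Y-poor ONC libraries left out, which leaves 3 pools with both eyes, 30 of 34 were lower, with medians of -0.14 (rod), -0.11 (shared) and -0.39 (cone). None of the 34 genes was called in limma in any of these settings. At an unadjusted p under 0.05 in limma there were 5 of 34 without pool 914/92, against 2950 of all 14194 genes. Without all 3 libraries there were 4 of 34, against 2124 of 14194. The part of what sets these libraries apart was not tested. In no gene were the ONC and Control values fully separated, against 4.44% of all genes that were separated and lower in ONC.

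**Figure D1:**
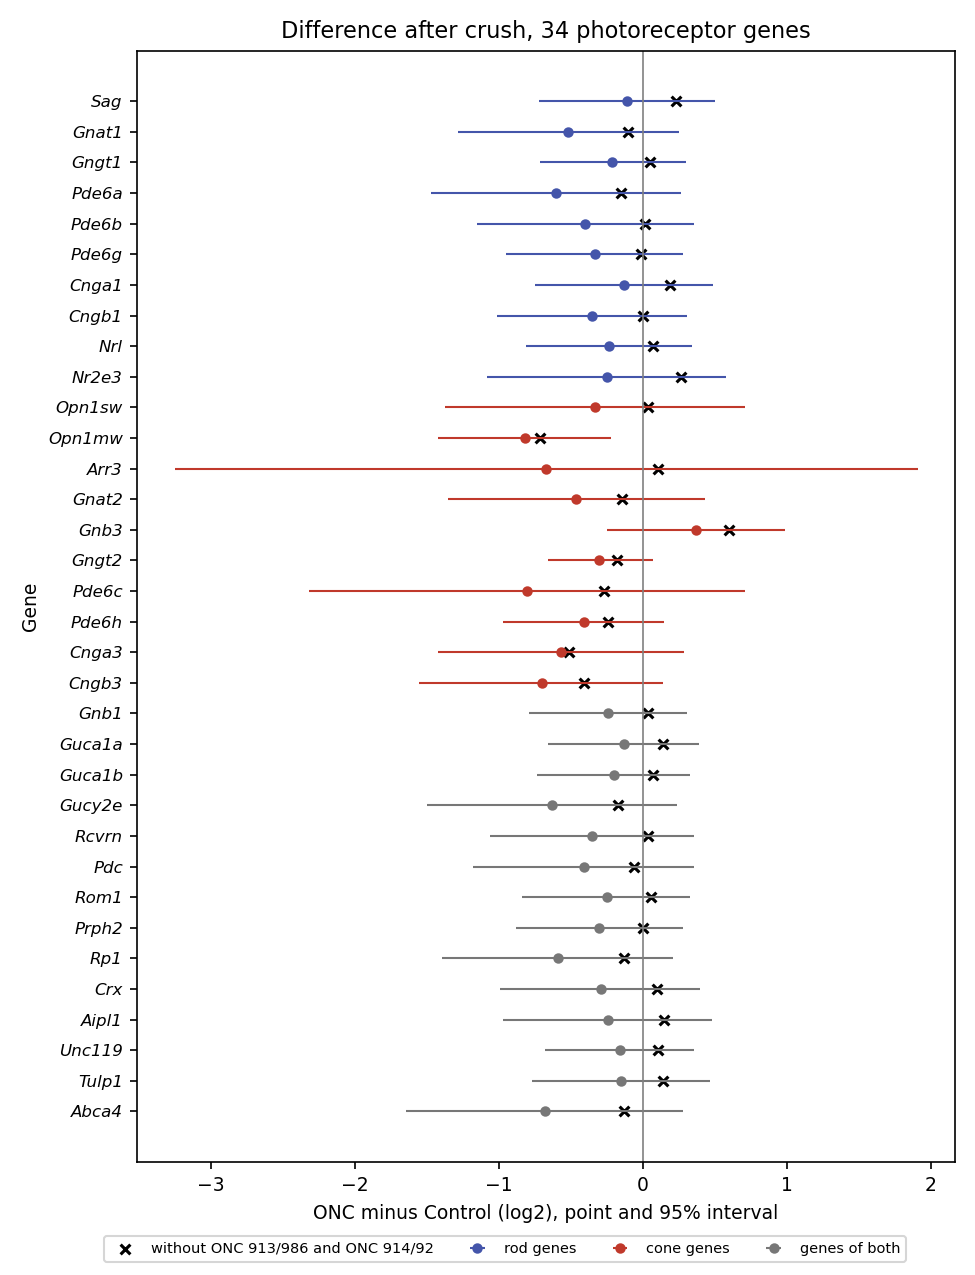
Difference between ONC and Control (log2, horizontal axis) for each of the 34 genes, with the 95% interval from limma over 5 ONC and 4 Control libraries; crosses give the difference without ONC 913/986 and ONC 914/92. The interval of Opn1mw alone lies below 0, from -1.42 to -0.22, and 20 crosses lie above 0.

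In the rod class the genes moved together from library to library. The class median was -0.66, 0.00, 0.01 and 0.11 in the Control libraries of pools 914/92, 938/88, 976/978 and 981/982. In the ONC libraries it was -0.70 in pool 913/986 and, in the same order of the other pools, -1.16, -0.16, -0.25 and 0.12. One Control library and 2 ONC libraries were thus low, and the other 6 lay between -0.25 and 0.12. All 10 rod genes had their lowest value in ONC 914/92, against 25.5% of all genes. Within a library the SD over the 10 genes was 0.10 to 0.11 in Control and 0.16 to 0.33 in ONC, so the spread between libraries exceeded the spread between genes. The baseline of each gene was set among the controls, which draws the genes together in the Control libraries. These SDs therefore cannot be compared between the groups.

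The rod transducin alpha subunit Gnat1 (mm10, chr9:107674474-107679592, minus strand, as the deposited table gives it) measured -0.56, 0.00, 0.15 and 0.28 in the Control libraries of pools 914/92, 938/88, 976/978 and 981/982. It measured -0.73 in ONC 913/986 and -1.62, -0.25, -0.28 and 0.15 in the ONC libraries of the same 4 pools. The ONC library was the lower one in every pool, but ONC 981/982 reached the level of Control 976/978, so the groups overlapped. The mean was -0.03 ± 0.37 (SD, n = 4) in Control and -0.55 ± 0.68 (SD, n = 5) in ONC, a difference of -0.52 ± 0.34 (SE) with an adjusted p of 0.409 in limma. Without the Y-poor ONC libraries the difference was -0.10, and without Control 914/92 as well it was -0.27. The gamma subunit of the same G protein, Gngt1, differed by -0.21 ± 0.22.

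Of the catalytic subunits of the rod phosphodiesterase, Pde6a had the largest difference in the class. Its values were -0.86, 0.00, 0.20 and 0.09 in Control and -0.88 (pool 913/986), -1.95, -0.37, -0.52 and 0.00 in ONC, in the order of pools used for Gnat1. ONC 914/92 lay more than 1 log2 unit below every other library, and ONC 981/982 lay among the Control values. The difference was -0.60 ± 0.39 (SE; limma adjusted p = 0.397), -0.15 without the Y-poor ONC libraries and -0.39 without Control 914/92 as well. The partner subunit Pde6b differed by -0.40 ± 0.33. The inhibitory subunit Pde6g measured -0.65, 0.00, -0.02 and 0.26 in Control and -0.68, -1.18, -0.14, -0.25 and 0.05 in ONC. Its pattern over libraries was that of Pde6a at a smaller range, and its groups overlapped (difference -0.33 ± 0.27, limma adjusted p = 0.496). The difference of Pde6g was -0.01 without the Y-poor ONC libraries and -0.19 without Control 914/92 as well.

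The channel subunits of rods, Cnga1 and Cngb1, differed by -0.13 ± 0.27 and -0.35 ± 0.29, and the rod transcription factors Nrl and Nr2e3 by -0.23 ± 0.25 and -0.25 ± 0.37. Sag (mm10, chr1:87803680-87845157, plus strand), whose promoter window is shown above, had the largest p of the class. It measured -0.56, 0.12, 0.02 and 0.00 in Control and -0.39, -1.04, 0.11, 0.00 and 0.26 in ONC. Except for the low ONC 914/92, the ONC values covered about the same range as the Control values. Its difference was -0.11 with a 95% interval of -0.72 to 0.50 (limma adjusted p = 0.831), and it became 0.23 without the Y-poor ONC libraries and 0.07 without Control 914/92 as well.

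**Figure D2:**
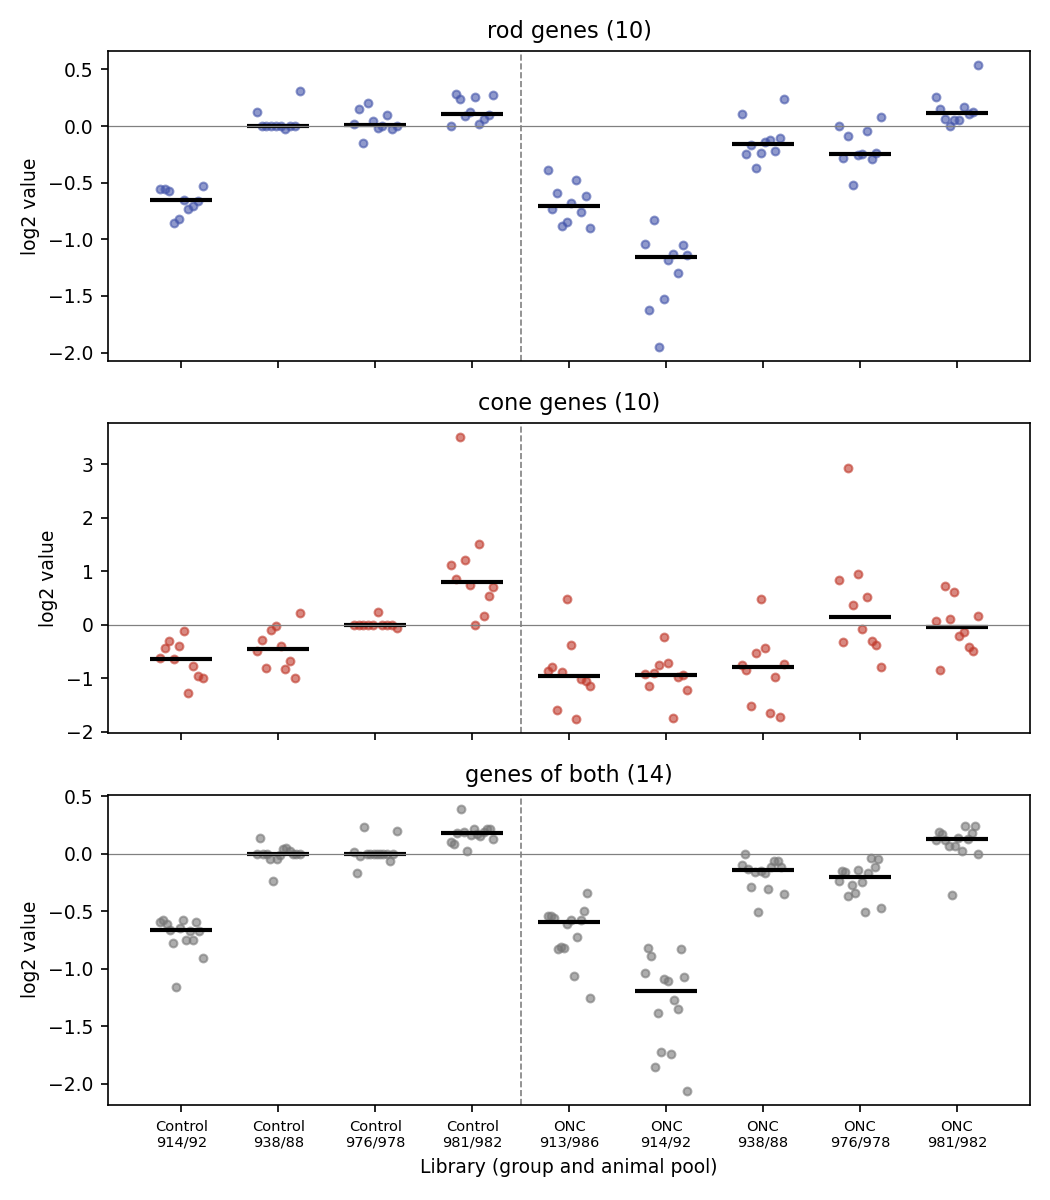
Value of each gene (points, deposited log2, relative to a baseline per gene) in each of the 9 libraries, with the median of the class as a bar, for rod, cone and shared genes; the vertical scales differ. Rod and shared genes form tight groups that are low in Control 914/92, ONC 913/986 and ONC 914/92, and cone genes are more widely spread and high in Control 981/982.

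Cone genes differed more among themselves. The class median was -0.64, -0.45, 0.00 and 0.80 in Control and -0.95 (pool 913/986), -0.93, -0.80, 0.14 and -0.04 in ONC. Control 981/982 was the high library rather than ONC 914/92 the low one: 8 of the 10 cone genes had their highest value in Control 981/982, against 18.7% of all genes, and 4 of 10 had their lowest in ONC 914/92. A highest value in Control 981/982 was not particular to cone genes. It was found for 9 of 14 shared genes, 4 of 10 rod genes and 9 of 11 bipolar markers. Of the other photoreceptor genes given below, 36 of 53 had it. The SD over the 10 genes within a library reached 0.98 in Control 981/982 and 1.06 in ONC 976/978. The median difference of -0.51 became -0.25 without Control 981/982, -0.74 without Control 914/92 and -0.33 without ONC 913/986.

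Opn1mw, the medium-wavelength cone opsin (mm10, chrX:74127466-74150755, plus strand), was the gene nearest to a call. It measured -0.43, -0.29, 0.00 and 0.85 in Control and -0.79, -1.14, -0.84, -0.33 and -0.85 in ONC. Of the ONC libraries 4 lay below every Control library, and ONC 976/978 lay between the Control values. The mean was 0.03 ± 0.58 (SD, n = 4) in Control and -0.79 ± 0.29 (SD, n = 5) in ONC. The difference of -0.82 ± 0.27 (SE), a 1.77-fold lower value in ONC, had an unadjusted p of 0.0127 and an adjusted p of 0.159 in limma, and the ONC library was lower in 4 of 4 pools. It was -0.71 without the Y-poor ONC libraries, -0.86 without Control 914/92 as well and -0.66 without the 2 libraries high in nuclear RNA. Leaving out single libraries gave -0.98 to -0.55, the smallest without Control 981/982.

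Opn1sw, the short-wavelength cone opsin (mm10, chr6:29376671-29380513, minus strand), did not share that order of libraries. It measured -0.63, -0.50, 0.00 and 1.11 in Control and -0.87, -0.93, -0.76, 0.83 and 0.06 in ONC. Control 981/982 and ONC 976/978 were the high libraries, 3 ONC libraries lay below every Control library, and the groups overlapped. Its difference was -0.33 ± 0.46 (limma adjusted p = 0.696), lower in 3 of 4 pools, and 0.04 without either Control 981/982 alone or the 2 Y-poor ONC libraries, and -0.16 without the latter and Control 914/92. Both opsins were thus low in ONC 938/88 and ONC 914/92 and parted in ONC 976/978 and ONC 981/982; the difference between the opsins was not tested.

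In the cone transducin, the alpha subunit Gnat2 differed by -0.46 ± 0.39 (-0.14 without the Y-poor ONC libraries, -0.39 without Control 914/92 as well), and the gamma subunit Gngt2 was among the cone genes with the smallest p. Gngt2 measured -0.12, -0.40, 0.23 and 0.00 in Control and -0.38, -0.71, -0.44, -0.09 and -0.22 in ONC, a narrow range in which the groups overlapped. Its difference was -0.30 ± 0.16 (limma adjusted p = 0.324). The beta subunit Gnb3, which the retina also uses in ON bipolar cells, was the only one of the 34 genes with a higher mean in ONC and was singled out for that after its values were seen. It measured -0.39, -0.03, 0.00 and 0.75 in Control and 0.48, -0.23, 0.48, 0.95 and 0.61 in ONC. The difference was 0.37 ± 0.27 (limma adjusted p = 0.456), with the ONC library higher in 3 of 4 pools and lower in pool 981/982. The median of 11 bipolar markers, a list not limited to ON bipolar cells, was -0.52, 0.00, 0.01 and 0.23 in Control. In ONC it was -0.62, -1.22, -0.17, -0.58 and 0.05. The part of bipolar cells in the Gnb3 values was not tested.

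The cone phosphodiesterase subunits Pde6c (catalytic) and Pde6h (inhibitory) differed by -0.80 ± 0.67 and -0.41 ± 0.25. Without the Y-poor ONC libraries Pde6c differed by -0.27, and without Control 914/92 as well by -0.65. Of the channel subunits, Cnga3 differed by -0.57 ± 0.38. Cngb3 measured -1.0, 0.21, -0.07 and 0.70 in Control and -1.14, -1.22, -0.73, -0.79 and 0.17 in ONC. Its ONC library was lower in every pool, although Control 914/92 was nearly as low as the lowest ONC libraries. The difference was -0.70 ± 0.37 with a limma adjusted p of 0.319, and of 0.0959 with the pool as a replicate block.

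Arr3, the cone arrestin (mm10, chrX:100605497-100618493, plus strand), varied most of the 34 genes. It measured -0.31, -0.81, 0.00 and 3.51 in Control and -1.59, -0.90, -1.52, 2.92 and 0.72 in ONC. Control 981/982 and ONC 976/978 lay at least 2.19 log2 units above the other 7 libraries, a gap that ranked 2 among all genes. The difference of -0.67 ± 1.14 had a 95% interval of -3.25 to 1.91 (limma adjusted p = 0.751), and it changed sign without Control 981/982 (0.30) or without the 2 Y-poor ONC libraries (0.11), and was -0.19 without the latter and Control 914/92.

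For 5 of the 10 cone genes, and for 0 of 10 rod and 0 of 14 shared genes, the highest libraries of all 9 were Control 981/982 and ONC 976/978, against 5.71% of all genes. They were Opn1sw, Arr3, Gnat2, Pde6c and Gnb3. Pde6c measured 1.50 and 0.51 in them, Opn1sw 1.11 and 0.83, and Gnat2 1.21 and 0.36. The non-coding RNAs measured 1.73 and 1.16 (Meg3), 2.00 and 1.53 (Miat) and 2.74 and 2.12 (Snhg11) in the same libraries, together with Malat1 as given above. Neat1, also a nuclear RNA, was not high there (0.01 and 0.46). These 5 RNAs were chosen after their values were seen, and their part in the cone values was not tested. Without Control 981/982 and ONC 976/978 the median difference was -0.38 for cone, -0.25 for rod and -0.23 for shared genes.

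**Figure D3:**
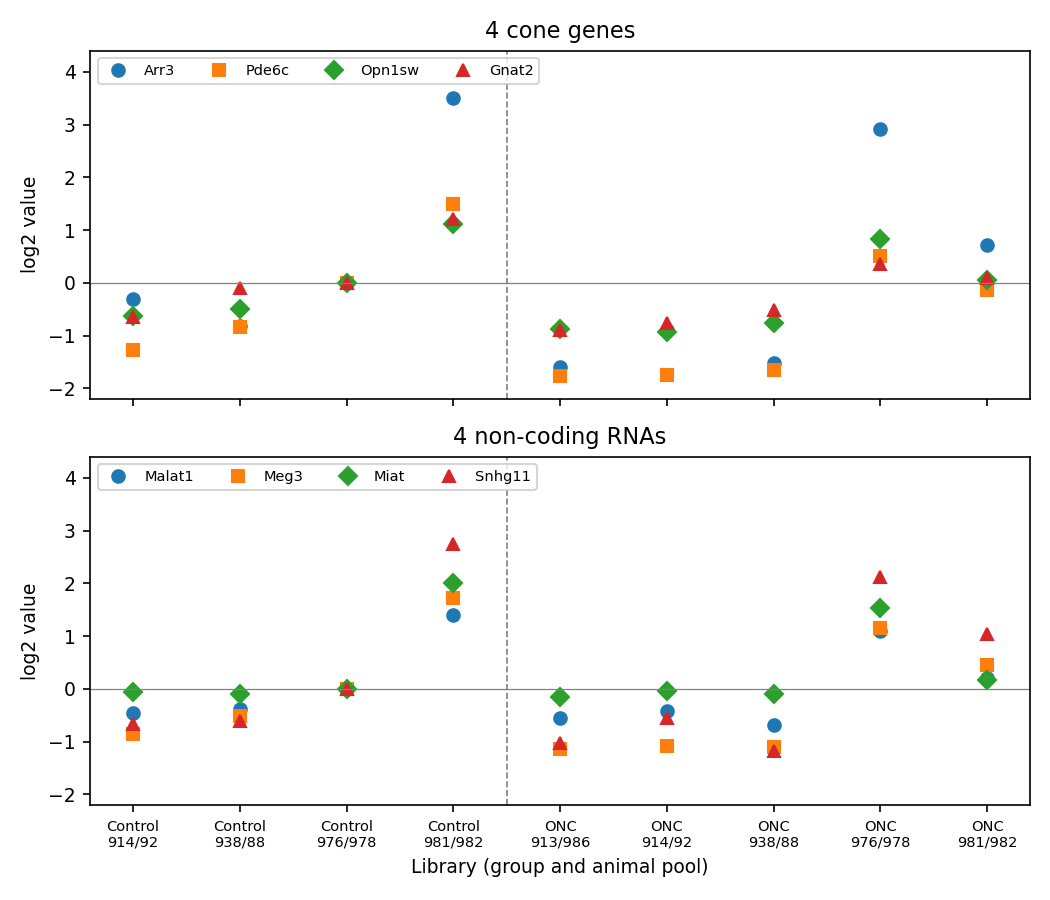
Values (deposited log2, relative to a baseline per gene) of 4 cone genes, above, and 4 non-coding RNAs, below, in each of the 9 libraries. In both panels Control 981/982 and ONC 976/978 stand highest, with Arr3 at 3.51 and 2.92 and Snhg11 at 2.74 and 2.12. The 4 cone genes are among the 5 of 10 for which these libraries were the highest. Neat1, which was not high there (0.01 and 0.46), is not shown, so the order in both panels follows from the choice of genes.

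The 14 genes used by both rods and cones followed the rod pattern. Their median was -0.66, 0.00, 0.00 and 0.18 in Control and -0.60 (pool 913/986), -1.19, -0.14, -0.21 and 0.13 in ONC. All 14 were lowest in ONC 914/92. The median difference of -0.27 was -0.08 without ONC 914/92 and -0.46 without Control 914/92, and for the rod class these values were -0.11 and -0.47. The ONC library was lower in all 4 pools for 10 of these 14 genes, 4 of 10 rod and 4 of 10 cone genes, in all 18 of 34 against 19.0% of all genes. With pool 914/92 left out, whose libraries differ in Y-linked RNA, 19 of 34 were lower in the other 3 pools, against 22.9% of all genes. The genes of a library are not independent of one another, so these counts are descriptions.

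Gucy2e, a retinal guanylate cyclase that resynthesises cyclic GMP, measured -0.66, 0.00, 0.23 and 0.39 in Control and -0.83, -1.85, -0.29, -0.37 and 0.12 in ONC. Its ONC value was below the Control value of the same label in every pool, most of all in pool 914/92, and the groups overlapped. The difference was -0.63 ± 0.39 (limma adjusted p = 0.374), -0.17 without the Y-poor ONC libraries and -0.39 without Control 914/92 as well. The calcium-sensing cyclase activators Guca1a and Guca1b differed by -0.13 ± 0.23 and -0.20 ± 0.24. Recoverin (Rcvrn), the calcium sensor that restrains the kinase acting on opsins, differed by -0.35 ± 0.31, and phosducin (Pdc), which binds transducin beta and gamma subunits, by -0.41 ± 0.34. Gnb1, the beta subunit used with rod transducin, differed by -0.24 ± 0.24.

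Among the genes of outer segment structure, Rp1, a microtubule protein of the outer segment axoneme, had the smallest p of the shared class. It measured -0.75, 0.04, 0.00 and 0.17 in Control and -1.06, -1.74, -0.31, -0.51 and 0.02 in ONC. The order of the ONC libraries was the same as for Gnat1 and Pde6a, lowest in pool 914/92 and highest in pool 981/982, and the groups overlapped (difference -0.59 ± 0.35, limma adjusted p = 0.371). The difference of Rp1 was -0.13 without the Y-poor ONC libraries and -0.34 without Control 914/92 as well. The disc rim proteins Prph2 and Rom1 differed by -0.30 ± 0.26 and -0.25 ± 0.26. Abca4, the disc transporter that clears retinal conjugates, reached the lowest value of any of the 34 genes. It measured -0.91, 0.00, 0.20 and 0.13 in Control and -1.25, -2.06, -0.35, -0.47 and 0.00 in ONC. Its difference was -0.68 ± 0.42 (limma adjusted p = 0.383), -0.13 without the Y-poor ONC libraries and -0.38 without Control 914/92 as well.

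The transcription factor Crx differed by -0.29 ± 0.31, the PDE6 chaperone Aipl1 by -0.24 ± 0.32 and the lipid-binding trafficking protein Unc119 by -0.16 ± 0.23. Tulp1, which carries proteins to the outer segment, had the largest p of the class. It measured -0.67, 0.00, 0.00 and 0.21 in Control and -0.34, -1.07, -0.12, -0.05 and 0.24 in ONC. Apart from pool 914/92, its values in both groups lay within 0.34 of 0, and the difference was -0.15 ± 0.27 (limma adjusted p = 0.764).

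**Figure D4:**
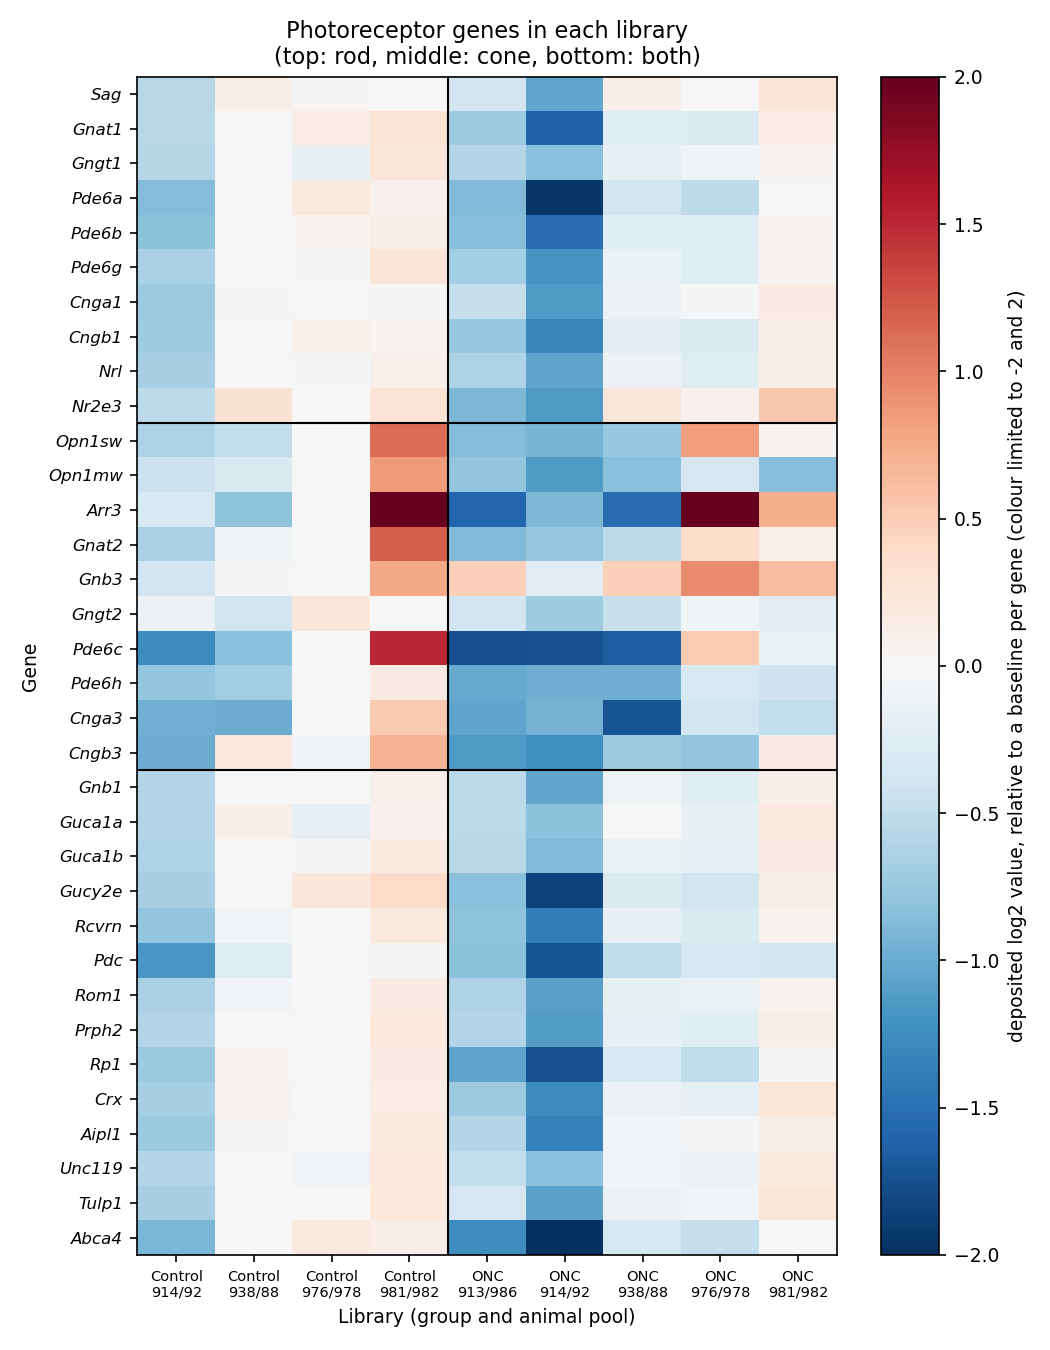
Values (deposited log2 values, relative to a baseline per gene, colour limited to -2 and 2) of the 34 genes, in rows by class, in the 4 Control and 5 ONC libraries. The low columns of rod and shared genes are Control 914/92, ONC 913/986 and ONC 914/92, and the high column of cone genes is Control 981/982.

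Rod and cone counterparts were set side by side within each library. The cone member minus the rod member was highest in Control 981/982 for 6 of 9 pairs. The pairs are not all separate: Pde6c was set against both Pde6a and Pde6b, and both of these pairs are among the 6. Gnb1, set against Gnb3, is of the shared class. For the arrestins (Arr3 minus Sag) it was 0.25, -0.93, -0.02 and 3.51 in Control and -1.20, 0.14, -1.62, 2.92 and 0.46 in ONC. For the transducin alpha subunits (Gnat2 minus Gnat1) it was -0.09, -0.10, -0.15 and 0.93 in Control and -0.16, 0.86, -0.27, 0.65 and -0.06 in ONC. Both pairs favoured the cone gene in Control 981/982 and ONC 976/978 more than in most other libraries. The arrestin pair was also above 0 in both libraries of pool 914/92 and in ONC 981/982, and the transducin pair in ONC 914/92. The pair of beta subunits (Gnb3 minus Gnb1) kept another order, at 0.20, -0.03, -0.01 and 0.66 in Control and 1.02, 0.81, 0.58, 1.19 and 0.50 in ONC, with Control 981/982 inside the range of ONC. Over whole classes, the rod median minus the cone median was -0.02, 0.45, 0.01 and -0.69 in Control and 0.25, -0.23, 0.65, -0.38 and 0.16 in ONC, and the groups overlapped.

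Median values of markers of several other cell types moved along the same libraries. The median of 18 Müller glia markers was 0.24, -0.04, 0.01 and -0.47 in Control and 0.31, 0.53, 0.06, 0.07 and -0.20 in ONC, so it was highest in ONC 914/92, where rod genes were lowest. The bipolar markers given above were low in Control 914/92, ONC 913/986 and ONC 914/92, as rod genes were, and also in ONC 976/978. Retinal ganglion cell markers had another order, with medians of 0.10, 0.08, 0.00 and -0.33 in Control and -0.70, -0.99, -0.79, -1.40 and -0.98 in ONC, and no overlap. Amacrine markers (9) had medians of -0.40, 0.21, 0.05 and 0.00 in Control and -0.55, -0.69, 0.04, -0.63 and 0.11 in ONC, and endothelial markers (6) -0.68, 0.00, 0.00 and 1.08 in Control and -0.62, -0.94, 0.26, -0.13 and 0.59 in ONC. Both medians were low in Control 914/92 and the Y-poor ONC libraries, like the rod median, and the amacrine median was also low in ONC 976/978. Single endothelial markers parted in Control 914/92, ONC 913/986 and ONC 914/92. The lowest marker there was at -1.52, -1.74 and -2.11, and the highest, Kdr, at 0.29, 0.30 and 0.56. Microglia markers (11) had higher medians in ONC, at 0.00, 0.11, 0.00 and -0.13 in Control and 2.64, 0.28, 2.57, 0.92 and 1.44 in ONC. Of these markers 1 was called in limma, against 1.16% of all genes. Only 8 of the 11 passed the submitters' filter in both groups. The medians of horizontal cell markers (5 of 6 measured) were -0.16 to 0.15 in Control and -1.68 to -0.26 in ONC. Of these 5, 4 passed the submitters' filter in both groups. In limma 1 was called lower in ONC, against 0.648% of all genes, and 2 were separated and lower, against 4.44%. The medians of pigment epithelium (8) were -0.57 to 0.41 in Control and -0.88 to 0.64 in ONC, and those of astrocytes (4) -0.54 to 0.25 and -0.29 to 0.44. Single markers ranged in the ONC libraries from -0.73 to 1.73 for Müller glia, from -1.38 to 0.35 for bipolar cells and from -2.16 to 0.49 for ganglion cells. The range was -2.09 to 4.4 for microglia and -4.07 to 0.71 for horizontal cells. The part of the amounts of each cell type in the photoreceptor values was not tested.

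**Figure D5:**
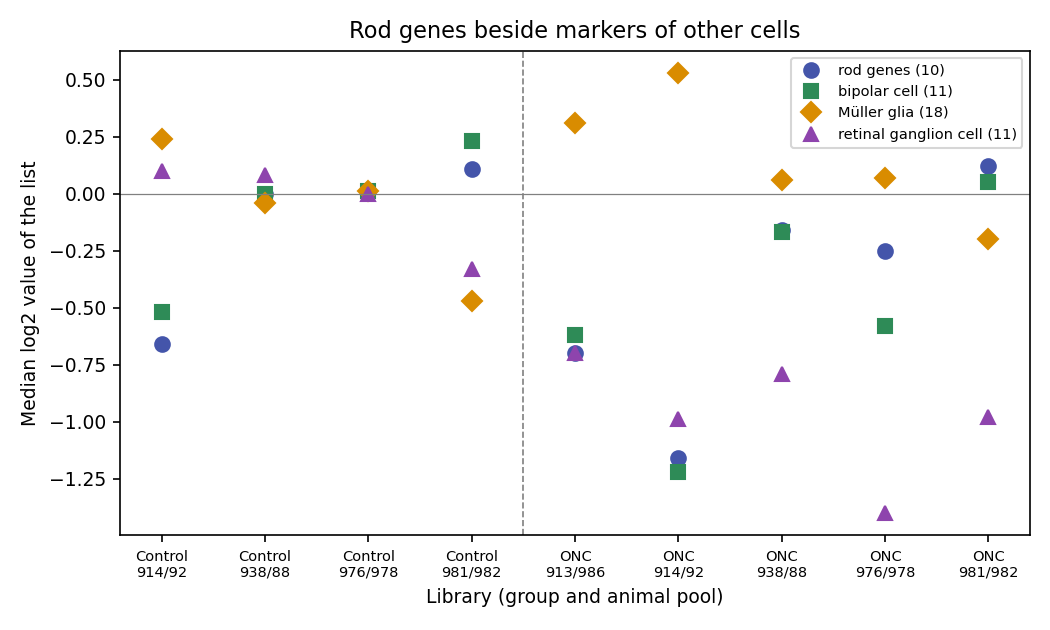
Median value (deposited log2, relative to a baseline per gene) in each library of the 10 rod genes and of marker lists for bipolar cells (11 genes), Müller glia (18) and retinal ganglion cells (11). Rod and bipolar medians fall together in Control 914/92, ONC 913/986 and ONC 914/92, while the Müller glia median is highest in ONC 914/92 at 0.53.

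Other photoreceptor genes, outside the 34, were looked at in 4 lists with 53 of 55 genes measured. In limma without the pool as a block 0 of 53 were called, against 1.16% of all genes. In the same fit 6 had an unadjusted p under 0.05, against 19.5% of all genes. The mean was lower in ONC for 51, against 50.1% of all genes, with a median difference of -0.43. Without the Y-poor ONC libraries 36 were lower and the median was -0.09; without Control 914/92 as well, 47 were lower and the median was -0.27. The nearest to a call were Rxrg, a nuclear receptor that acts in cone opsin choice, and Slc24a2, the sodium, calcium and potassium exchanger of cones that other neurons use too. From which cells the RNA of these 2 genes came was not tested. Rxrg measured -0.31, -0.55, 0.00 and 0.08 in Control and -0.92, -0.88, -1.64, -1.02 and -1.61 in ONC, and all 5 ONC libraries lay below all 4 Control libraries. Its difference was -1.02 ± 0.21 (limma adjusted p = 0.0605). Slc24a2 measured -0.34, 0.00, 0.11 and 0.22 in Control and -1.14, -1.39, -0.72, -1.27 and -0.42 in ONC, also without overlap (difference -0.98 ± 0.21, limma adjusted p = 0.0672). Thrb, the thyroid hormone receptor needed for medium-wavelength cones, was also separated (difference -0.27 ± 0.10, limma adjusted p = 0.184). These 3 of 53 lay near the 4.44% of all genes that were separated and lower in ONC.

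Without the Y-poor ONC libraries Rxrg and Slc24a2 differed by -1.23 and -0.80. With library weights both were called, at adjusted p = 0.0347 and 0.0161 in limma, in a fit that called 6.39% of all genes, and Slc24a2 was also called without ONC 981/982. Of the photoreceptor synapse genes, the ribbon scaffold proteins Pclo and Bsn differed by -1.28 ± 0.40 and -0.96 ± 0.33 (limma adjusted p = 0.151 and 0.170); with the pool as a replicate block Pclo was called, with an adjusted p of 0.0379. Amacrine and bipolar cells are also known to use both scaffold genes. Gucy2f, the second retinal guanylate cyclase, differed by -0.56 ± 0.25, and Kif17, a kinesin of cilia, by -0.27 ± 0.13. Neither was called in limma, with adjusted p of 0.257 and 0.278.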

How the data were processed

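The deposited table held normalized values of 14194 genes in 9 libraries of retinal ribosome-bound RNA. Per the file headers, values were normalized by the authors and kept where raw values lay between 5 and 298892.188 in 100% of the samples of at least 1 of 2 conditions, on RefSeq gene models. The submitters' processing notes name the build mm10 and DESeq; aligner and counter: not given in the sources used here. That the deposited values are log2 was read from the values, and in 13235 genes 1 or more controls lie at exactly 0.

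The test of ONC against Control for each gene was limma (3.58.1, R 4.3.3), two-sided, with Benjamini-Hochberg adjustment over all genes at 0.05. No variance trend was used, because the mean of values centred on controls follows the tested difference. The fit was tested on simulated data. Alternatives were 21 other fits. The 34 genes and all lists were chosen with earlier results of these data known. Every one of the 34 was named; values of each library were given for the 3 smallest p and the largest p of each class, for Opn1sw, and for genes said to be singled out, and from each other list the 2 smallest p were named, except 1 gene that is not reported here.

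Same-numbered libraries come from the same animals per the labels and so are paired, although the libraries of pool 914/92 differ in Y-linked RNA, and whether these come from the same mice was not settled. Deviations from the group means correlated at 0.377 (914/92), 0.178 (938/88), -0.0642 (976/978) and 0.45 (981/982) within pools; ONC 976/978 correlated more with another control (0.351), and in the other pools the highest such value was 0.0922.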

Additional observations from a re-analysis of the deposited data

Results flagged for a closer look

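Control 914/92 lay far below the other 3 Control libraries for 5 of the 34 genes and for the rod class. Pde6b was at -0.82 there against 0.00 to 0.12 in the other controls, Cnga1 at -0.73 against -0.03 to 0.02, and Cngb1 at -0.71 against 0.00 to 0.10. Nrl was at -0.66 against -0.03 to 0.10 and Gnb1 at -0.59 against 0.00 to 0.10. The rod median was -0.66 there against 0.00 to 0.11. These are 6 of 74 groups tested for a distant sample, where chance flags about 1 in 20, or 3.7 of 74, and the genes are not independent of one another. The baseline for each gene is set by the controls, which narrows the other controls around 0. In that library the median of Y-linked genes was -1.18 and that of bipolar markers -0.52; their part in the low values was not tested.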

How the results depend on the processing

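None of the 34 genes was called by limma in any of the 22 fits, and the lowest adjusted p was 0.0904 (Pdc, replicate block). With a replicate block for the pool the count over all genes was 129, against 165 without it; with the block and a trend it was 0, with a trend alone 50, after quantile normalization 30, among genes that passed the filter in both conditions 102 and with library weights 907. Leaving out single libraries gave 62 to 234 called genes, without the 2 Y-poor ONC libraries 72 and without the 2 libraries high in nuclear RNA 43, and without pool 914/92 and ONC 913/986 100; the last 3 settings, and leaving out pool 914/92 (184), were chosen after seeing the data. Of the other photoreceptor genes, 1 was called with a replicate block (Pclo; also with within-pool differences, 1), 2 with library weights, and 0 to 1 without single libraries. The block changed no other call among the genes named.

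Of 714 values (34 genes in 21 alternatives), 680 kept their direction and 34 changed sign. Without the Y-poor ONC libraries the difference became 0.23 (Sag), 0.05 (Gngt1), 0.02 (Pde6b), 0.19 (Cnga1), 0.00 (Cngb1), 0.07 (Nrl), 0.27 (Nr2e3), 0.04 (Opn1sw), 0.11 (Arr3), 0.04 (Gnb1), 0.14 (Guca1a), 0.07 (Guca1b), 0.04 (Rcvrn), 0.06 (Rom1), 0.00 (Prph2), 0.10 (Crx), 0.15 (Aipl1), 0.11 (Unc119) and 0.14 (Tulp1); without Control 914/92 as well it was 0.07 (Sag), 0.01 (Cnga1) and 0.09 (Nr2e3). After quantile normalization it became 0.07 (Cnga1), 0.01 (Guca1a), 0.03 (Unc119) and 0.05 (Tulp1), and with library weights 0.01 (Opn1sw) and 0.25 (Arr3). Without single libraries the ranges that crossed 0 were -0.26 to 0.10 (Sag), -0.31 to 0.07 (Cnga1), -0.28 to 0.00 (Guca1a) and -0.34 to 0.05 (Tulp1), the upper ends without ONC 914/92, and -0.62 to 0.04 (Opn1sw) and -1.42 to 0.30 (Arr3), the upper ends without Control 981/982. The cause was not tested. Quantile normalization also moved the class medians to -0.14 (rod), -0.27 (cone) and -0.09 (shared). Depth is unknown, so no interval for counting error can be given.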
